A study of Mus musculus with 10 samples.

Results

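C3, C4b, Cfb, Saa1, Saa2, Saa3, Hp, Lcn2 and Orm1 encode complement and acute-phase proteins, and they are 9 of the 34717 distinct gene names measured here in cultured mouse mesenchymal stem cells. They are read by 10 of 55681 probes, because C3 has 2. The genes were selected on their measured levels in these same 5 groups, so their levels and differences below are a description and carry no test. Complement is a chain of plasma proteins in which C4 and C2, or factor B in the alternative pathway, form enzymes that split C3. The fragments of C3 coat targets and call in leukocytes. Acute-phase proteins such as the serum amyloids and haptoglobin are made mainly by the liver when interleukin-6, interleukin-1 or tumor necrosis factor signal inflammation, through STAT3, NF-kappa-B and the C/EBP factors. Fibroblasts, macrophages and fat tissue also make several of them.

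RNA of 10 cultures of cells from FVB mice was read on 1 single-colour array each, 2 cultures in each of 5 groups. The titles number these 2 and do not say whether they came from separate mice, deletions or tumors. The tumor line was grown from a tumor that arose under the skin of immunodeficient NSG mice given null cells from bone marrow. Part of its labels call it a tumor and part a cell line. Its titles also name Rb-/-p53-/- cells and 10 days of priming toward bone cells. Null BM-MSC (from bone marrow) and null ASC (from fat) carried floxed Rb and p53 alleles per the culture protocol, were primed for 10 days toward bone cells and were then infected with Ad-CMV-Cre, an adenovirus that expresses Cre recombinase from the CMV promoter. Their source labels name Rb-/-p53-/- mice instead. No priming is stated for the wild-type groups, BM-MSC and ASC, and the protocol does not make clear whether they received the virus. All groups were kept in the same complete growth medium. The tumor line and null BM-MSC were labelled tumorigenic and the other 3 groups non-tumorigenic. Deletion and priming went together in the null groups and in the labels of the tumor line. Wild-type and null cultures shared the first part of the array barcode, read here as the slide, but differed in its second part. What that second part stands for is not stated. Deletion, priming and the second part of the barcode thus cannot be told apart. The tumor line had a slide of its own, so slide and cell line cannot be told apart either.

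A level is the log2 of a probe's processed signal minus the log2 of the array's 75th percentile, so a level of 0 is that percentile and 1 unit is a doubling. Between 53.3% and 58.4% of spots were well above background on each array, that percentile was 483 to 621 intensity units, and 0 spots were saturated. The 2 cultures of a group correlated at r = 0.994 to 0.996 over genes, and genes are not replicates. The Rb1 probe averaged −1.97 ± 0.01 in the tumor line, 0.60 ± 0.08 in null BM-MSC and −1.94 ± 0.04 in null ASC, against 1.91 ± 0.01 in wild-type BM-MSC and 1.31 in both cultures of wild-type ASC (SD, n = 2 each). The Trp53 probe was not well above background in the tumor line, was above it in 1 of 2 null ASC cultures, and averaged −1.0 ± 0.16 in null BM-MSC, against 0.77 ± 0.08 in wild-type BM-MSC and 1.06 ± 0.07 in wild-type ASC (SD, n = 2 each). Whether these probes lie in the excised exons was not checked. All 10 mesenchymal stromal markers (Pdgfra, Pdgfrb, Thy1 and others) were well above background on all arrays. Of the 9 hepatocyte markers with a probe, Ttr, Fgb, Cps1, Hpd and Ahsg were not well above background on any array, Alb was so on 1 array of null BM-MSC and Apob on 1 of the tumor line. Apoa2 was well above background on all arrays, and Tat on both arrays of 3 groups and 1 array of the other 2.

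Sequence upstream of 4 of the genes is shown because C3 and Saa3 differed widely between the groups, and because the 3 serum amyloids are neighbours on chromosome 7. Each line gives the 250 bases before the annotated start of the gene, 5′ to 3′ on the gene's strand, from RefSeq on GRCm38.p6. Capitals mark the motif TTNNGCAA, a pattern bound by C/EBP factors, read on either strand. The windows are C3 at chr17:57228137-57228386 (minus strand), Saa3 at chr7:46715677-46715926 (minus), Saa1 at chr7:46742981-46743230 (minus) and Saa2 at chr7:46751583-46751832 (plus).
C3: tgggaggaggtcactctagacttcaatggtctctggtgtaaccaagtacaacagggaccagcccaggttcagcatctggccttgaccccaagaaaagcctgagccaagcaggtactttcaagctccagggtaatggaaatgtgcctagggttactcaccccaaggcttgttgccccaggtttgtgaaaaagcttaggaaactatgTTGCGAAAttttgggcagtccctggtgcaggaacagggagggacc
Saa3: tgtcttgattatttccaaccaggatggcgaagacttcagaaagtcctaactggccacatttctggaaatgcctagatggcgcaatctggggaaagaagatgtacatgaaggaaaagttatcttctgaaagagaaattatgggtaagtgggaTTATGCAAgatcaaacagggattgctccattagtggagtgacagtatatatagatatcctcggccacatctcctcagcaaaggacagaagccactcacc
Saa1: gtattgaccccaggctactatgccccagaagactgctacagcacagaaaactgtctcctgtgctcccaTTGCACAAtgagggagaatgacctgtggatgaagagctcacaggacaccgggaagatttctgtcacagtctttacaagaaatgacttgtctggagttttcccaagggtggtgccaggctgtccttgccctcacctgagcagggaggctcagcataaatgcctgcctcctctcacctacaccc
Saa2: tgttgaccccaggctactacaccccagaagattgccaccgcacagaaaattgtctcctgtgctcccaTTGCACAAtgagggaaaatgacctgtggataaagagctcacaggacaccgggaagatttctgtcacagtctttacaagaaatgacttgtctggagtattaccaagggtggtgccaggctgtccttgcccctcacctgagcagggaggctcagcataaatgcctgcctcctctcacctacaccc

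The motif lay 45 bases upstream in C3, 99 in Saa3, 182 in Saa1 and 183 in Saa2, and the Lcn2 window, not shown, held it 216 bases upstream. It was thus in 5 of the 5 windows matched by symbol, beside 10.8% of 32851 RefSeq windows that run from 250 bases before to 50 after a start. The STAT motif TTCNNNGAA was in 0 of the 5 windows, beside 8.30% of all windows. The NF-kappa-B consensus was also in 0 of the 5, beside 4.5%. No searched motif overlapped another in these windows, and a match or its lack describes the letters of this window only. The Saa1 and Saa2 windows were identical at 238 of 251 aligned positions, and Saa3 shared 50.2% with Saa1 and 50.6% with Saa2.

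The Saa1 and Saa2 probes differ, which bears on reading the 2 genes apart, and the first 30 of their 60 bases are shown. The Saa1 probe lies at chr7:53996070-53996129 (minus strand) and the Saa2 probe at chr7:54009622-54009681 (plus strand), in mm9 coordinates from the scanner files.
Saa1 probe: gcagtggcaaagaccccaattactacagac
Saa2 probe: ttactcgagcagtagtaactgcttgaggag
RefSeq lists Saa1 and Saa2 as synonyms of each other, so the names of these 2 probes are uncertain. The annotation of the C4b probe also lists the accession of its near copy C4a, which has no probe of its own, so C4b below stands for either.

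C3 is the protein on which all complement pathways meet. Its levels were 0.12 and 0.14 in the tumor line, −1.61 and −1.81 in null BM-MSC, 5.64 and 5.87 in null ASC, 4.97 and 4.91 in wild-type BM-MSC and 8.12 and 8.02 in wild-type ASC. No 2 groups overlapped, with wild-type ASC highest and null BM-MSC lowest. The mean signal was 154 intensity units in null BM-MSC and 17019 in wild-type BM-MSC, and 30946 in null ASC and 137884 in wild-type ASC. The probe was printed 10 times on each array, and its spots on 1 array had an SD between 0.02 and 0.12 on the log2 scale. The second C3 probe gave the same order of groups, with levels of −0.04 and −0.08 in the tumor line, −1.16 and −1.20 in null BM-MSC, 4.96 and 5.14 in null ASC, 4.24 and 4.17 in wild-type BM-MSC and 7.40 and 7.43 in wild-type ASC.

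C4b, which supplies a subunit of the classical and lectin C3 convertase, split the groups differently. Its levels were −3.92 and −4.35 in the tumor line, −2.80 and −2.81 in null BM-MSC, 1.58 and 1.74 in null ASC, 2.13 and 1.94 in wild-type BM-MSC and 1.97 and 1.83 in wild-type ASC. Both wild-type groups overlapped, null ASC lay just under them, and null BM-MSC and the tumor line lay far below. Cfb, or factor B, supplies the protease of the alternative convertase. Its levels were −0.98 and −0.95 in null BM-MSC, −1.33 and −1.54 in null ASC, −1.46 and −1.12 in wild-type BM-MSC and 0.08 and 0.04 in wild-type ASC, and it was not well above background on either tumor line array. Wild-type ASC stood above the other groups, and null ASC and wild-type BM-MSC overlapped.

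Saa3, the serum amyloid that mouse macrophages and fat cells make, was measured in 3 of 5 groups. Its levels were 2.45 and 2.76 in null ASC, −0.50 and −0.67 in wild-type BM-MSC and 6.10 and 5.89 in wild-type ASC, while the tumor line and null BM-MSC were not well above background. The 3 measured groups did not overlap, and ASC stood above BM-MSC. Saa1 encodes a serum amyloid that the liver secretes into plasma, where it rides on high-density lipoprotein. Its levels were −2.46 and −2.73 in the tumor line, −1.81 and −1.66 in null BM-MSC, −0.31 and −0.21 in null ASC, −1.75 and −1.77 in wild-type BM-MSC and 1.41 and 1.19 in wild-type ASC. Null and wild-type BM-MSC overlapped, and ASC again stood above BM-MSC. Saa2, its near copy, was measured in ASC alone, at −2.20 and −2.03 in null ASC and −2.07 and −2.13 in wild-type ASC, which overlapped.

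Hp encodes haptoglobin, the plasma protein that captures free hemoglobin. Its levels were 1.48 and 1.36 in null BM-MSC, −1.79 and −1.62 in null ASC, 4.73 and 4.55 in wild-type BM-MSC and 0.11 and 0.20 in wild-type ASC, and the tumor line gave −4.99 and −5.43 with 1 of 2 arrays well above background. Here the order of tissues was the reverse of that of Saa3, with BM-MSC above ASC in either genotype. Lcn2 encodes lipocalin 2, which binds bacterial siderophores. Its levels were −3.08 and −3.18 in the tumor line, −2.96 and −3.35 in null BM-MSC, −3.16 and −3.19 in null ASC, −1.44 and −1.75 in wild-type BM-MSC and −1.90 and −2.26 in wild-type ASC. The tumor line and both null groups overlapped below both wild-type groups. Orm1, an alpha-1-acid glycoprotein, was not well above background on any array, so no level or difference is given for it.

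**Figure D1:**
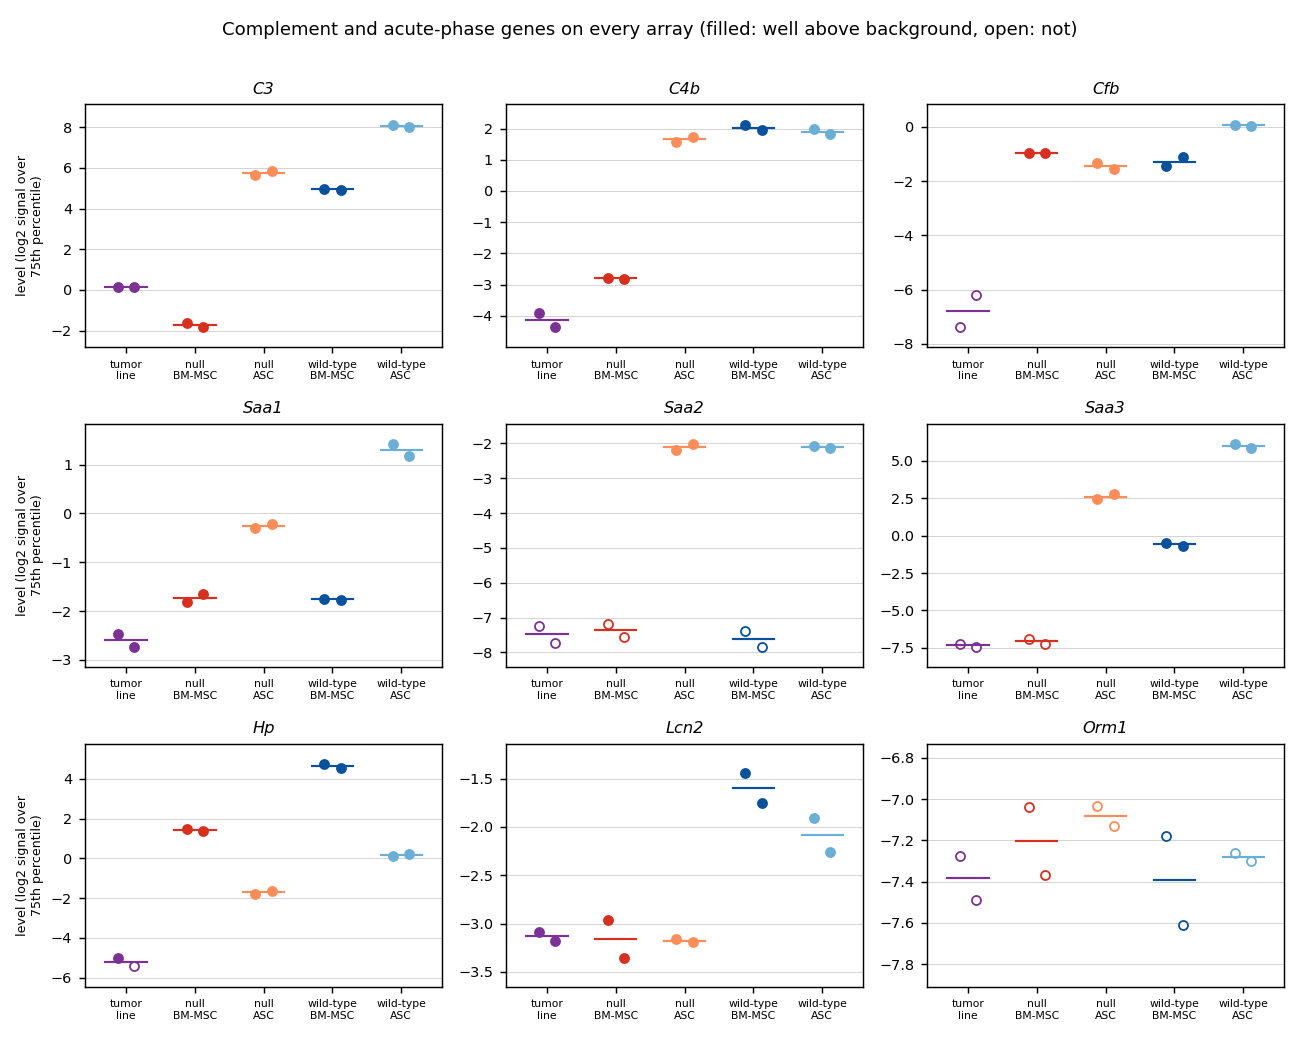
Level of each gene (log2 signal over the array's 75th percentile, vertical axis) on every array, with groups along the horizontal axis. Points are arrays, lines are means of 2, and open points are not well above background: C3 runs from −1.71 on average in null BM-MSC to 8.07 in wild-type ASC, and Orm1 has open points throughout.

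The first comparison asked how primed null BM-MSC differed from wild-type BM-MSC. Differences are log2, null minus wild type, with the SE of a linear model over all 10 arrays, and 39.5% of all 22595 genes tested passed its threshold, an adjusted p of 0.05, in this comparison. No count of members past the threshold is given, because these values chose the genes. Null BM-MSC held 0.994% of the wild-type C3 signal, a difference of −6.65 ± 0.10, and 2.39% by the second probe. C4b differed by −4.84 ± 0.15, Hp by −3.22 ± 0.15 and Lcn2 by −1.56 ± 0.18. Saa3, dim in null BM-MSC, was at least 25.6-fold lower there, a bound that sets a dim probe at the faintest signal called well above background, or at its own signal if that is higher. Saa1 differed by 0.03 ± 0.12 and Cfb by 0.33 ± 0.35, both within 1 SE of 0. The Lcn2 difference was −0.90 when background was corrected by normexp.

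Null ASC were set against wild-type ASC in the same way, and 41.5% of all genes passed the threshold. Saa3 differed by −3.39 ± 0.16, at 9.55% of wild type, and C3 differed by −2.32 ± 0.10, at 20.01% of wild type. Hp differed by −1.86 ± 0.15, Saa1 by −1.56 ± 0.12, Cfb by −1.49 ± 0.35 and Lcn2 by −1.10 ± 0.18. C4b differed by −0.24 ± 0.15 and Saa2 by −0.01 ± 0.22. The C4b difference was −0.16 without null ASC replicate 1, and that of Lcn2 was −0.66 under normexp.

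The null effect in BM-MSC minus the null effect in ASC asks whether the 2 null-against-wild-type differences were alike, and 31.8% of all genes passed that test. The Rb1 and Trp53 probes fell less in BM-MSC than in ASC. Rb1 averaged 0.60 in null against 1.91 in wild-type BM-MSC, and −1.94 in null against 1.31 in wild-type ASC. Whether deletion was equally complete in both tissues was not tested. C3 and C4b were lowered more in BM-MSC, by −4.33 ± 0.14 for C3 and −4.60 ± 0.21 for C4b, and Hp by −1.37 ± 0.22. The second C3 probe gave a smaller value, −3.01. Saa1 went the other way, at 1.59 ± 0.16, as did Cfb, at 1.82 ± 0.49. Lcn2 gave −0.46 ± 0.25, within 2 SE of no difference. No value is read for Saa2 or Saa3, which were not well above background in null BM-MSC.

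**Figure D2:**
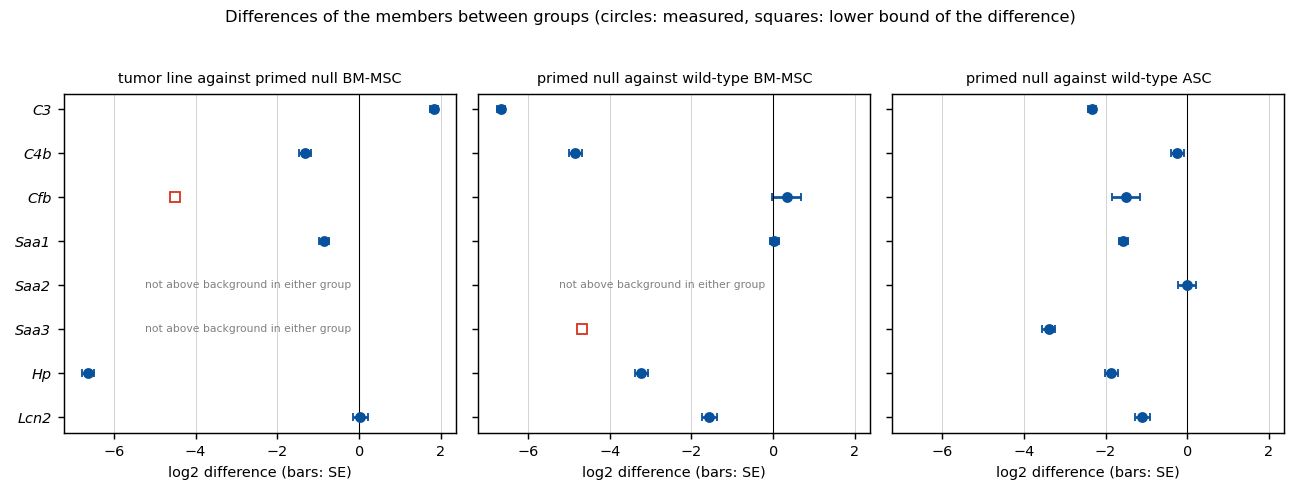
Log2 differences of each gene in 3 comparisons that involve null or tumor cells (horizontal axis, with SE bars), 1 gene per row. Filled circles are measured differences, open squares are the least difference a bound allows, and grey text marks genes not above background in either group: C3 and C4b lie at −6.65 and −4.84 in null against wild-type BM-MSC, while C4b lies at −0.24 in ASC.

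BM-MSC against ASC gave opposite signs for different members. Among null cells 55.4% of all genes passed the threshold, and among wild-type cells 54.0% did. C3 in BM-MSC was at 0.566% of ASC in null cells, a difference of −7.46 ± 0.10, and at 11.4% in wild-type cells, a difference of −3.13 ± 0.10. By the second C3 probe it was at 1.33% in null and 10.8% in wild-type cells. Saa3 in BM-MSC was at least 233.9-fold lower in null cells and differed by −6.58 ± 0.16 in wild-type cells. Saa2 was at least 8.86-fold lower in null and at least 10.9-fold lower in wild-type BM-MSC. Saa1 differed by −1.47 ± 0.12 in null and by −3.06 ± 0.12 in wild-type cells. C3 and the serum amyloids thus stood lower in BM-MSC in either genotype. Hp was higher in BM-MSC, by 3.12 ± 0.15 in null and 4.49 ± 0.15 in wild-type cells. C4b differed by −4.47 ± 0.15 in null cells and by 0.13 ± 0.15 in wild-type cells, where the tissues overlapped. Cfb gave 0.47 ± 0.35 in null cells against −1.35 ± 0.35 in wild-type cells. Lcn2 gave 0.02 ± 0.18 in null cells, where the tissues overlapped, and 0.48 ± 0.18 in wild-type cells.

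The tumor line was set against the null BM-MSC it grew from, a comparison in which 69.5% of all genes passed the threshold. C3 was higher in the tumor line, by 1.84 ± 0.10, which is 358% of null BM-MSC, and by 1.12 on the second probe. C4b differed by −1.33 ± 0.15, or −0.69 under normexp, and Saa1 by −0.86 ± 0.12. Cfb was at least 22.9-fold lower in the tumor line. Hp, above background on 1 of its 2 tumor line arrays, differed by −6.63 ± 0.15, and by −4.33 under normexp. Lcn2 differed by 0.03 ± 0.18. Against wild-type BM-MSC 67.8% of all genes passed. C3 stood at 3.56% of wild type there, or 5.20% by the second probe. C4b differed by −6.17 ± 0.15 and Hp by −9.85 ± 0.15, Cfb was at least 18.3-fold lower and Saa3 at least 29.8-fold lower. These 2 comparisons share the tumor line arrays, and null BM-MSC is shared with the comparisons above.

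These are bulk cultures, so fewer cells of a type and less RNA per cell cannot be told apart. The macrophage list had 6 to 8 of 10 markers well above background, with a summed linear level, in units of the 75th percentile, of 13.7 to 14.6 in the tumor line, 22.4 to 23.5 in null BM-MSC, 16.8 to 17.9 in null ASC, 28.8 to 29.1 in wild-type BM-MSC and 29.4 to 34.1 in wild-type ASC. Itgam, a subunit of the receptor for C3 fragments that the regulator list below also holds, made up 49.5% of that sum in the tumor line and 64.8% to 81.7% in the other groups. Fcgr1 and Mrc1 were not well above background on any array. On average Cd14 and Lyz2 were highest in the tumor line, whereas Itgam, Csf1r, Adgre1 and the dim Ptprc were lowest there. The order of the sums is thus not that of every marker. The neutrophil list had 3 or 4 of 10 above background and summed to 0.744 to 0.924 in the tumor line, 3.42 to 3.48 in null BM-MSC, 1.08 to 1.24 in null ASC, 8.76 to 8.94 in wild-type BM-MSC and 1.19 to 1.32 in wild-type ASC. Camp, a cathelicidin, made up 81.5% of the sum in null BM-MSC and 92.5% in wild-type BM-MSC, where it averaged 1.49 ± 0.04 in null BM-MSC and 3.03 ± 0.03 in wild-type BM-MSC (SD, n = 2 each). Of the other neutrophil markers, Mpo and Elane were well above background on all arrays and Mmp8 on 1 tumor line array, while S100a8, S100a9, Ngp, Ltf, Retnlg and Cxcr2 were so on none. The adipocyte list summed to 231 to 254 in null ASC and 261 to 274 in wild-type ASC, and to 13.6 to 18.0 in the other 3 groups. Lpl made up over 99% of the list's sum for ASC. Its share was 87.8% for the tumor line, 60.2% for null BM-MSC and 38.5% for wild-type BM-MSC. Fabp4 and Pparg were well above background on all arrays and Retn on all ASC arrays. Adipoq was so on 1 array, of wild-type BM-MSC, and Lep, Cd36 and Cfd on none. Here too the order of the sums was not that of every marker. Pparg was higher in BM-MSC, with means of 2.77 (wild type) and 2.48 (null), beside −1.55 (wild type) and −1.30 (null) for ASC. Among wild-type cells Fabp4 was also higher in BM-MSC, at 1.96 against −0.17. Among null cells Fabp4 was lower in BM-MSC, at −2.17 against 0.50. The part of these cell types in the members' levels was not tested.

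Genes around the members came from 6 lists of 128 genes in all, of which 127 are on the array and 90 were tested. These lists were chosen with earlier results of these data known. The shares of the lists, here and below, are therefore a description and no test of a list. Of these 90, 53 passed the threshold in null against wild-type BM-MSC (14 higher, 39 lower), 56 in null against wild-type ASC (21 higher, 35 lower) and 75 in the tumor line against null BM-MSC (33 higher, 42 lower). These are 58.9%, 62.2% and 83.3% of the 90, beside the 39.5%, 41.5% and 69.5% of all genes given above. Across tissues, 67 passed in null cells (29 higher in BM-MSC, 38 lower) and 69 in wild-type cells (30 higher, 39 lower). That is 74.4% in null and 76.7% in wild-type cells, beside 55.4% and 54.0% of all genes. The median change in the BM-MSC null comparison was −0.22 over the 90, beside 0.0058 over all genes, and in ASC it was −0.16, beside −0.028. In both tissues 20 of the 90 fell in null cells and 6 rose, among them C5ar2, Cd93, Cebpg, Irf1 and Scarb1. Of these, the C5ar2 change in ASC turned to −0.39 when all probes of the gene were averaged, and the call for Irf1 in BM-MSC was lost under that alternative. Of the rest, 6 rose in BM-MSC and fell in ASC and 7 did the reverse. Genes called in both tissues were not counted over all genes, so these counts have no background share beside them.

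**Figure D3:**
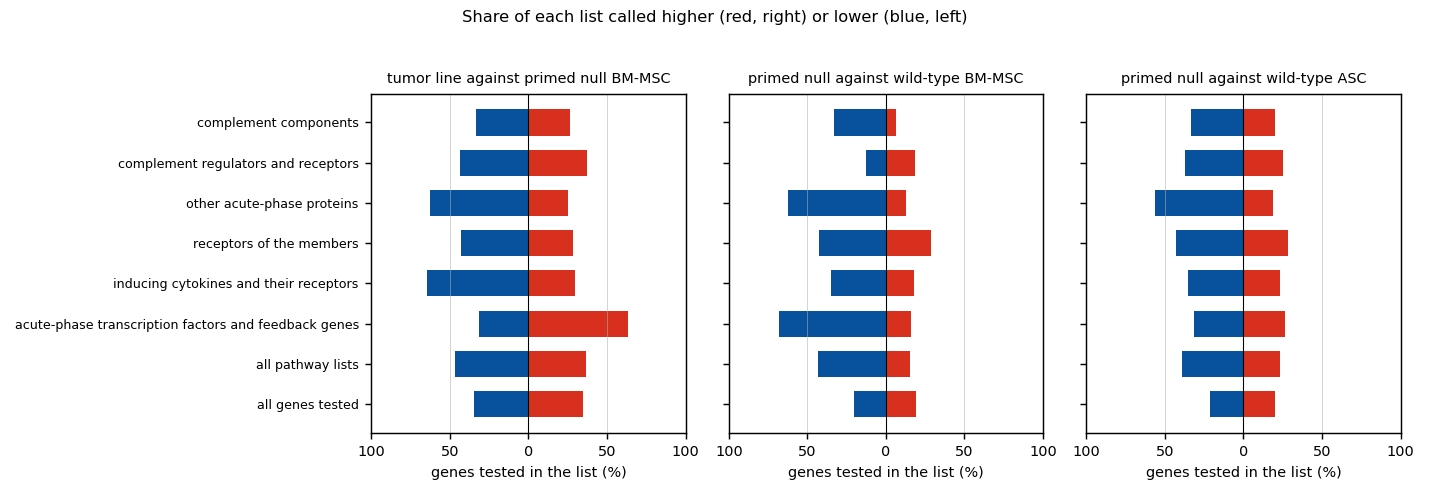
Share of tested genes past the threshold in each pathway list and among all genes (horizontal axis, percent), for 3 comparisons, with higher genes drawn to the right of 0 and lower genes to the left. In null against wild-type BM-MSC, 84.2% of the transcription factor list and 39.5% of all genes passed in either direction.

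Among the inducing cytokines and their receptors, 3 of 17 tested genes rose and 6 fell in null BM-MSC, and 4 rose and 6 fell in null ASC, which is 52.9% of the list in BM-MSC and 58.8% in ASC, beside 39.5% and 41.5% of all genes. Il6, the main inducer of the acute phase, averaged −3.26 ± 0.59 in null BM-MSC against −0.86 ± 0.23 in wild-type BM-MSC, a change of −2.39 ± 0.29 (adjusted p = 0.00102), and fell by 1.88 ± 0.29 in null ASC (adjusted p = 0.00247). Osmr, the receptor chain for oncostatin M, fell by 1.71 ± 0.07 in null BM-MSC (adjusted p = 1.31e-05) and by 0.68 ± 0.07 in null ASC (adjusted p = 0.000321). Il1r1, the signalling interleukin-1 receptor, fell by 1.48 ± 0.08 in null BM-MSC (adjusted p = 3.65e-05). It rose in ASC, with a mean of 2.00 in null and 1.53 in wild-type ASC. In null ASC, Lifr, a receptor for leukemia inhibitory factor, rose by 1.59 ± 0.09 (adjusted p = 3.47e-05) and Ifng, which encodes interferon-gamma, by 2.94 ± 0.18 (adjusted p = 4.95e-05). Ifng was well above background on 1 of 2 wild-type ASC arrays, so the size of its change is uncertain. In the tumor line against null BM-MSC 5 of the 17 rose and 11 fell, 94.1% of the list beside 69.5% of all genes. Il6 was not above background in the tumor line and was at least 4.67-fold lower than in null BM-MSC and at least 24.5-fold lower than in wild-type BM-MSC.

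The transcription factors and feedback genes of the acute phase fell more often than they rose in null BM-MSC, with 13 of 19 lower and 3 higher, and a median of −0.31. That is 84.2% of the list, beside 39.5% of all genes. In null ASC 6 fell and 5 rose, which is 57.9%, beside 41.5%. Cebpd, the C/EBP factor that cytokines induce, averaged 3.84 in null BM-MSC against 6.09 in wild-type BM-MSC, a change of −2.25 ± 0.06 (adjusted p = 5.73e-06), and fell by 1.75 ± 0.06 in null ASC (adjusted p = 8.48e-06). Bcl3, a nuclear partner of NF-kappa-B, fell by 1.42 ± 0.06 in null BM-MSC (adjusted p = 2.29e-05), and Nfkbiz, a nuclear cofactor of NF-kappa-B, by 1.21 ± 0.12 (adjusted p = 0.00051). Cebpg, a C/EBP relative, rose by 0.76 ± 0.08 in null BM-MSC (adjusted p = 0.000673) and by 0.78 ± 0.08 in null ASC (adjusted p = 0.000516). In the tumor line against null BM-MSC 12 of the 19 rose and 6 fell, 94.7% of the list beside 69.5% of all genes. Cebpd was higher there by 1.21 ± 0.06 (adjusted p = 4.15e-06), Bcl3 by 1.68 ± 0.06 (adjusted p = 1.57e-06) and Socs3, the feedback inhibitor of STAT3 signalling, by 1.31 ± 0.09 (adjusted p = 2.73e-05), while Tnfaip3, an NF-kappa-B inhibitor, fell by 1.38 ± 0.04 (adjusted p = 8.21e-07).

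**Figure D4:**
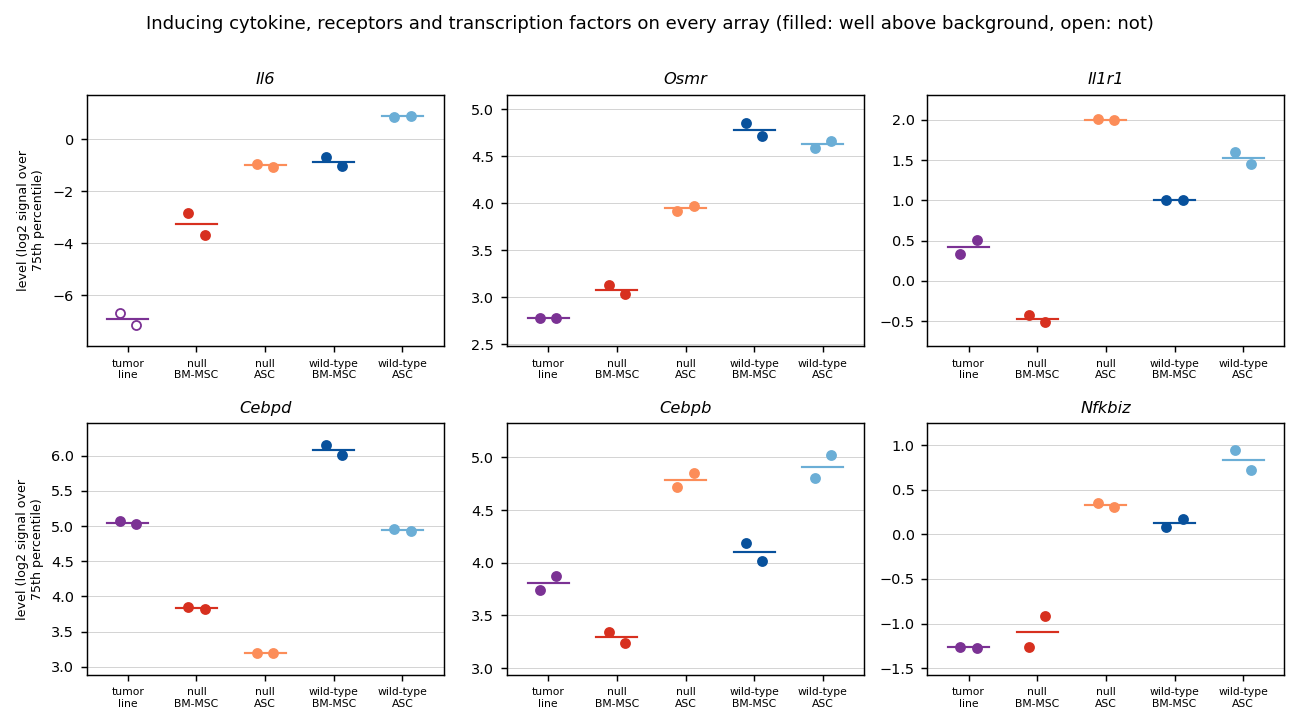
Levels of Il6, Osmr, Il1r1, Cebpd, Cebpb and Nfkbiz (log2 signal over the 75th percentile, vertical axis, scaled per panel) on every array by group. Lines are means of 2 and open points are not well above background: Cebpd averages 3.84 in null BM-MSC and 6.09 in wild-type BM-MSC, and Il6 is open in the tumor line.

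Of the 15 tested complement components, 1 rose and 5 fell in null BM-MSC, and 3 rose and 5 fell in null ASC. At 40% of the list in BM-MSC the share was close to the 39.5% of all genes, and at 53.3% in ASC it stood beside 41.5%. C1s1 and C1ra, the proteases of the first component, fell in both tissues. C1s1 fell by 1.60 ± 0.05 in null BM-MSC (adjusted p = 7.35e-06) and by 1.49 ± 0.05 in null ASC (adjusted p = 8.82e-06), and C1ra fell by 1.05 ± 0.04 in BM-MSC (adjusted p = 1.42e-05) and by 1.12 ± 0.04 in ASC (adjusted p = 1.11e-05). C2, the protease partner of C4, rose by 0.55 ± 0.04 in null BM-MSC (adjusted p = 0.000154). It fell in ASC, with a mean of 4.18 in null and 5.13 in wild-type ASC. In the tumor line 4 components were higher and 5 lower than in null BM-MSC, 60% of the list beside 69.5% of all genes. C2 changed by −6.52 ± 0.04 there (adjusted p = 6.73e-09) and C1s1 by −2.84 ± 0.05 (adjusted p = 8.72e-08), while C1qa, a chain of the recognition molecule, was at least 6.63-fold higher. Between tissues, Masp1, a protease of the lectin pathway, was higher in BM-MSC by 4.27 ± 0.30 in null cells (adjusted p = 3.86e-05) and by 6.71 ± 0.30 in wild-type cells (adjusted p = 5.28e-06), with 1 of 2 wild-type ASC arrays well above background. Colec11, a collectin that starts that pathway, was lower in BM-MSC, at −4.86 ± 0.27 in null cells (adjusted p = 1.31e-05) and −4.76 ± 0.27 in wild-type cells (adjusted p = 1.56e-05). It was well above background on 1 of 2 arrays in each BM-MSC group, so the sizes of these differences are uncertain.

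Complement regulators and receptors gave 3 higher and 2 lower of 16 tested in null BM-MSC, and 4 higher and 6 lower in null ASC. That is 31.25% of the list in BM-MSC, below the 39.5% of all genes, and 62.5% in ASC, beside 41.5%. Serping1, the inhibitor of C1r and C1s, fell by 1.99 ± 0.10 in null BM-MSC (adjusted p = 2.96e-05) and by 1.05 ± 0.10 in null ASC (adjusted p = 0.000271). Cd59a, a membrane protein that blocks the final, pore-forming complex, fell by 1.12 ± 0.05 in null ASC (adjusted p = 2.32e-05). Cd55, a membrane protein that takes convertases apart, rose by 1.97 ± 0.35 in null ASC (adjusted p = 0.00438). In the tumor line against null BM-MSC 6 of the 16 rose and 7 fell, 81.25% of the list beside 69.5% of all genes. Serping1 changed by −5.97 ± 0.10 there (adjusted p = 6.66e-08) and Cd59a by −2.54 ± 0.05 (adjusted p = 1.67e-07), and Cd55 was at least 15.4-fold lower. C3ar1, the receptor of the C3a fragment, was higher by 2.76 ± 0.23 (adjusted p = 6.05e-05), and Cr2, a receptor of C3 fragments on B cells, by 2.98 ± 0.16 (adjusted p = 6.89e-06).

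**Figure D5:**
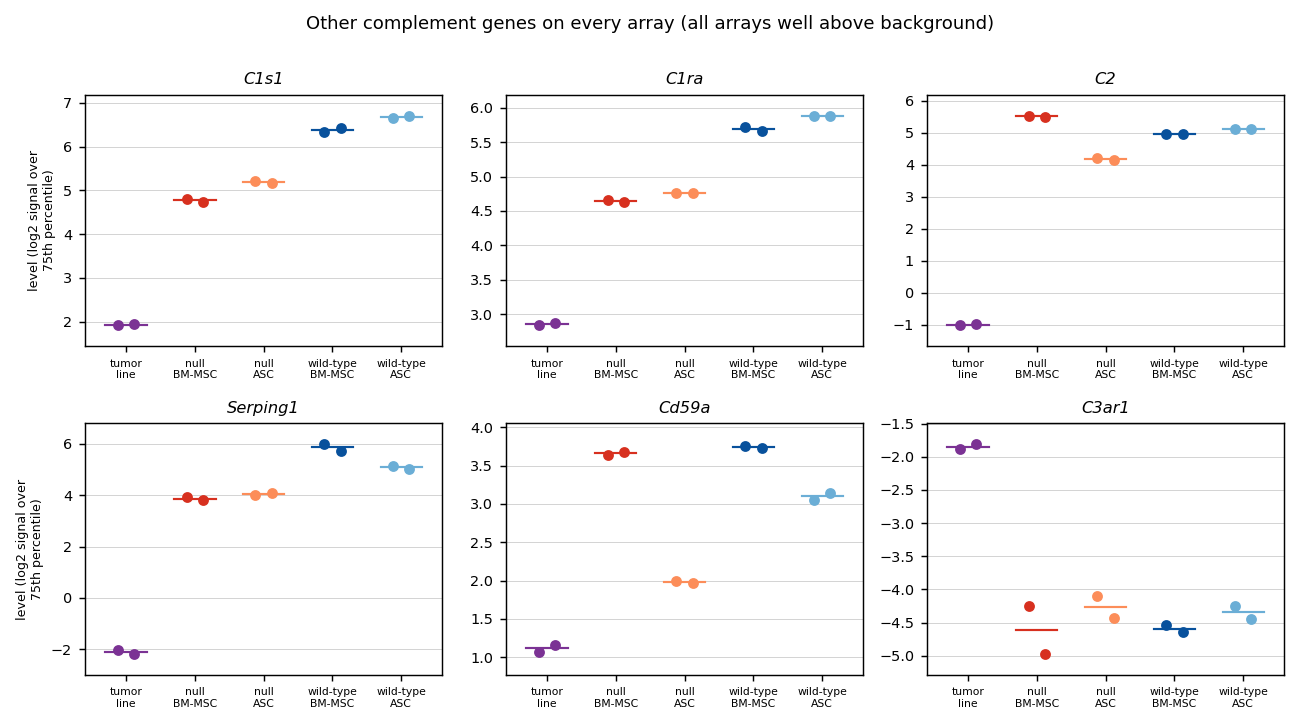
Levels of C1s1, C1ra, C2, Serping1, Cd59a and C3ar1 (log2 signal over the 75th percentile, vertical axis, scaled per panel) on every array by group, with lines at means of 2. C1s1, C1ra, C2, Serping1 and Cd59a are lowest in the tumor line and C3ar1 is highest there.

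Other acute-phase proteins fell more often than they rose, with 10 of 16 lower and 2 higher in null BM-MSC and 9 lower and 3 higher in null ASC, at medians of −0.64 in BM-MSC and −0.36 in ASC. That is 75% of the list in either tissue, beside 39.5% of all genes in BM-MSC and 41.5% in ASC. Ptx3, a long pentraxin that activates complement, fell by 2.93 ± 0.16 in null BM-MSC (adjusted p = 4.54e-05), and Serpina3g, a protease inhibitor, by 4.02 ± 0.08 (adjusted p = 3.84e-06). Lbp, which carries bacterial lipopolysaccharide, rose by 1.29 ± 0.09 there (adjusted p = 0.000123). In null ASC Lbp changed by −1.13 ± 0.09 (adjusted p = 0.000164), a call lost when all probes of the gene were averaged. In null ASC, Cp, the copper carrier ceruloplasmin, fell by 2.70 ± 0.09 (adjusted p = 8.05e-06) and Serpina3n, an inhibitor of serine proteases, by 2.37 ± 0.07 (adjusted p = 6.61e-06), whereas Rbp4, the retinol carrier, rose by 3.31 ± 0.12 (adjusted p = 1.12e-05). Against wild-type BM-MSC, 14 of the 16 were lower in the tumor line and 2 higher, beside 67.8% of all genes past the threshold. Ptx3 changed by −7.75 ± 0.16 there (adjusted p = 1.75e-07), and Il1rn, the interleukin-1 receptor antagonist, was at least 299.7-fold lower. Between tissues, Ptx3 was higher in BM-MSC by 4.19 ± 0.16 in null cells (adjusted p = 2.46e-06) and by 7.52 ± 0.16 in wild-type cells (adjusted p = 2.84e-07).

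Receptors of the members gave 2 higher and 3 lower of 7 tested in either tissue, or 71.4%, beside 39.5% of all genes in BM-MSC and 41.5% in ASC. Scarb1, a lipoprotein receptor that takes up serum amyloid A, rose by 0.48 ± 0.07 in null BM-MSC (adjusted p = 0.0028) and by 0.73 ± 0.07 in null ASC (adjusted p = 0.000396). Tlr2, which also responds to serum amyloid A, fell by 0.86 ± 0.05 in null BM-MSC (adjusted p = 6.67e-05) and rose by 0.65 ± 0.05 in null ASC (adjusted p = 0.000155). Slc22a17, a lipocalin 2 receptor, fell by 0.68 ± 0.11 in null ASC (adjusted p = 0.00249) and by 1.40 ± 0.11 in the tumor line against null BM-MSC (adjusted p = 3.36e-05). Lrp2, or megalin, which binds lipocalin 2, was at least 11.2-fold higher in the tumor line than in null BM-MSC.

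The genes most like each member were found by Pearson's r across the 10 arrays, over 22587 genes. The arrays fall into 5 groups, so r mostly follows group means and is a description. Saa2 was well above background on 4 of the 10 arrays, Saa3 on 6, Cfb on 8 and Hp on 9, so their r rests partly on values at background. For C3 they were F730043M19Rik and Maff (both r = 0.996) and H60a (r = 0.991). For C4b the nearest was Gdf6 (r = 0.990), for Cfb Uap1l1 (r = 0.996), for Hp Sema3e (r = 0.993), for Saa1 an unnamed probe and then Tmem147 (r = 0.993), for Saa2 Gimap9 (r = 1.000), and for Saa3 a probe with no gene name and then Slc66a2 (r = 0.994).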

How the data were processed

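Total RNA of 10 cultures was measured on single-colour Agilent arrays, 1 per culture. The deposited scanner files hold intensity per spot, made with Feature Extraction 10.7.3.1 and background-subtracted, per the file headers. Probe coordinates are mm9. The deposited series matrix holds log2 values, whose scale was read from the values (r = 0.989 to 0.993 with the scanner values, medians 5.04 to 5.06), with centring and normalization not given in the sources used here. It served as an alternative only. Limma is named in the submitters' processing notes without a role.

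Control and outlier spots were left out, log2 processed signals were averaged per probe, and the 75th percentile of the array was taken off. On some array 37 of 55681 probes had no usable spot. Probes were named through RefSeq by accession (27235), symbol (3581), synonym (565) or case (41), and 24259 kept the file's name. The brightest probe stood for a gene, and 22595 genes well above background on both arrays of some group were tested. All 5 groups entered 1 fit in limma 3.58.1 (R 4.3.3), which left 5 residual degrees of freedom and added 1.35 from the prior. Within each of 7 contrasts, two-sided p-values of all tested genes were adjusted together (Benjamini-Hochberg), and 0.05 was the threshold. The script was tested on simulated data. P-values measure the spread between 2 cultures per group, the number of arrays limits the precision, and the median SE of a change was 0.0946.

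The members and the gene lists were chosen with earlier results of these data known, so members carry no p. Named list genes were, per list and contrast, up to 3 called genes per direction with the largest change, no overlap of groups and signal above background in each group, plus genes above background in 1 group only. Some genes that this rule names are not reported here. Replicate numbers did not pair the cultures, with 10 correlations of deviations between −0.122 and 0.116.

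Alternatives were other background correction, normalization, filters, probe summaries, sample sets, a replicate block and leaving out each array.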

Additional observations from a re-analysis of the deposited data

Results flagged for a closer look

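The null effect differed between BM-MSC and ASC (BM-MSC effect minus ASC effect, log2, adjusted p under the threshold in limma) for the list genes given here. The Rb1 and Trp53 probes also fell less in null BM-MSC than in null ASC, and whether deletion was equally complete was not tested. Among complement genes the difference was 1.49 for C2, 1.10 for Clu, 1.03 for Cd59a, 0.71 for Itgam, −0.95 for Serping1 and −2.44 for Masp1. Among other acute-phase genes it was 2.56 for Cp, 2.42 for Lbp, −2.98 for Serpina3g, −3.33 for Ptx3 and −4.54 for Rbp4. Among cytokine receptors it was 0.72 for Il11ra1, 0.46 for Ifngr1, 0.38 for Ifngr2, −1.02 for Osmr, −1.45 for Lifr and −1.95 for Il1r1. Among transcription factors and feedback genes it was 0.25 for Nr3c1, −0.88 for Nfkbie, −0.96 for Nfkbia and −1.09 for Bcl3. Among receptors of the members it was 0.70 for Tlr4, 0.68 for Slc22a17, 0.64 for Lrp1 and −1.51 for Tlr2. Masp1 was well above background on 1 of 2 wild-type ASC arrays. The Nr3c1 call was lost in 10 alternatives, the Itgam call in 8, the Slc22a17 call in 2, and the Tlr4 and Lrp1 calls when all probes of a gene were averaged.

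Cfb stood out among the members because its arrays separated in opposite directions. Both null BM-MSC arrays lay above both wild-type BM-MSC arrays, but the difference of 0.33 ± 0.35 was within 1 SE of 0. That SE pools all 5 groups, among them the tumor line, where Cfb was not well above background (SD 0.82, n = 2). Both null ASC arrays lay below both wild-type ASC arrays, a difference of −1.49 ± 0.35. How many of all genes separate in this way was not counted. The difference of the 2 effects was 1.82. No test of it is given, because the gene was chosen with these values known.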

How the results depend on the processing

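The counts of called genes kept within 1.5 times their values in all alternatives run. In null against wild-type BM-MSC the pathway genes called ranged from 46 to 57, in ASC from 46 to 58. With a replicate block, 53 were called for null against wild type in BM-MSC, 55 in ASC and 41 for the difference of both effects. Between tissues, 65 were called in null and 69 in wild-type cells. For the tumor line, 72 were called against null cells and 76 against wild-type cells. Over all genes, in that order, the block gave 8507, 8974, 6707, 12283, 11932, 15548 and 15094 calls. The block serves as an alternative only, because the replicate numbers do not pair the cultures.

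Of 1076 member values under alternatives, 994 moved by less than the spread between replicates and 81 by more. The other 1, the Saa3 difference of effects, changed sign, at 0.86 under normexp, where null BM-MSC is not above background. Under normexp 23 of 56 member values moved by less than that spread and 32 by more. With the series matrix values 35 of 56 moved by less and 21 by more. A change of filter, of model or of an array outside the comparison cannot move a difference of group means. The pooled count therefore overstates how little the values depend on processing. A change of sign was counted only for differences past the threshold, and smaller differences were counted by how far they moved, whatever their sign. Of 4385 values of named list genes, 4263 kept their call, 120 lost it and 2 changed sign, namely C5ar2 in null against wild-type ASC (−0.39) and Il1rap in wild-type BM-MSC against ASC (−0.19), both with a gene's probes averaged. The cause was not tested. Calls for C1qb in the tumor line and Masp1 in null ASC were lost most often, in 13 alternatives each at most.

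Under normexp the Lcn2 difference of the tumor line from wild-type BM-MSC was −0.96, and that of wild-type BM-MSC from ASC was 0.30, or 0.31 without wild-type ASC replicate 2. Cfb in null against wild-type BM-MSC ranged from 0.16 to 0.49 when a wild-type BM-MSC array was left out. The cause was not tested. Cfb in the tumor line was above background on no array and Hp on 1 of 2, which limits their differences there.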
